A study of Homo sapiens with 47 samples.

Results

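RNA polymerase II (RNAPII) occupancy away from the targeted loci was compared between Ishikawa cells that expressed dCas9-VP16(10x) and Ishikawa cells that expressed dCas9-p300(core). The comparison used every RNAPII peak list of the experiment, 10 for each construct and 20 of the 47 libraries in all, with all gRNA pools combined. Peaks of the 20 lists were merged where they shared at least 1 bp, which gave 60730 intervals, and the 40 intervals within 5 kb of the 19 targeted loci were left out. The remaining 60690 intervals were compared by occurrence, the number of lists with a peak, and by enrichment, the fold over background that the authors' peak caller gave each peak, ranked within each list.

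Ishikawa is an endometrial adenocarcinoma line. Cells of both groups were grown in medium without hormones, transfected with a plasmid for the dCas9 fusion and plasmids for gRNAs, and selected with puromycin and G418 before chromatin was harvested. dCas9-VP16(10x) carries repeats of the VP16 activation domain of herpes simplex virus. In dCas9-p300(core), that domain was replaced in the same vector by the catalytic core of p300, amplified by PCR from a plasmid. Each construct was transfected with 3 pools of gRNAs for estrogen receptor binding sites near MMP17, CISH, FHL2 and HES2, with a pool for adjacent regions, and with gRNAs for the IL1RN promoter as the control, at 2 libraries per pool and construct. The titles of 2 dCas9-p300(core) libraries, IL1RN replicate 1 and Pool 3 replicate 1, carry the word backup. No library without a dCas9 fusion was measured for RNAPII, so each value compares the constructs with each other. In bulk chromatin, a change in the share of cells with a signal and a change of signal per cell cannot be told apart.

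RNAPII transcribes protein-coding genes. It is loaded at promoters by general transcription factors, often pauses just downstream of the start site, and is released into the gene body by elongation factors. Past the end of a gene it slows again before it leaves the template. The antibody, 4H8, recognises the C-terminal repeats of POLR2A, the largest subunit. VP16 contacts the Mediator complex and general transcription factors, whereas p300, encoded by EP300, acetylates histones, among them lysine 27 of histone H3 (H3K27ac), and is a coactivator at enhancers and promoters.

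Construct and sequencing run could not be told apart. Peak names carry an identifier that was taken as the sequencing run. All 10 dCas9-p300(core) lists carry 1 identifier (run B), 7 dCas9-VP16(10x) lists carry another (run A), and the other 3, replicate 2 of Pools 1 to 3, carry none. No identified run held RNAPII lists of both constructs, and the run of the 3 lists without an identifier is unknown. No comparison within a run can therefore be given for RNAPII, and values of both dCas9-VP16(10x) groups are given beside the results. Lists held 16041 to 40757 peaks, and they hold no reads, so the depth of each library is unknown. Promoters of the epithelial markers EPCAM, CDH1, KRT8, KRT19, CLDN3, CLDN4, CLDN7, ESRP1, PAX8 and SOX17 had a peak in all 20 lists. Of the other members of this list of 15, KRT18 shares the interval of KRT8, HOXA10 had a peak in 10 dCas9-VP16(10x) and 9 dCas9-p300(core) lists, HOXA11 in 0 and 6, and KRT7 and FOXA2 had no promoter interval. Of 16 markers of blood, stromal, endothelial, neural and liver cells, 3 had a peak at the promoter (COL1A1, PDGFRA and SYT1), each in at most 4 lists.

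The clearest difference in occurrence lay over a block of exons of EP300. The exons that turned on this result are printed here, from the reference genome (hg19, 5′ to 3′). The p300(core) insert was located in the canonical EP300 transcript by its cloning primers and runs from the last base of exon 16 (41548354 on chromosome 22) to base 213 of the 282 bases of exon 30 (41572463), 1851 bp of coding sequence in 15 exons. Capitals mark the bases of exon 17 that match the forward primer and the site of the reverse primer in exon 30. Exon 24, shown with no capitals, had one of the highest enrichments, and exon 21, the shortest exon of the insert, is shown because few lists had a peak there.
EP300 exon 17, chr22:41550999-41551117, plus strand: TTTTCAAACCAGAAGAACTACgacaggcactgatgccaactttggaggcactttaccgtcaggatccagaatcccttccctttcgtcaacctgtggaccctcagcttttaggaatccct
EP300 exon 21, chr22:41558727-41558783, plus strand: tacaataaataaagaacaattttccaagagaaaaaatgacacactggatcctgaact
EP300 exon 24, chr22:41564453-41564603, plus strand: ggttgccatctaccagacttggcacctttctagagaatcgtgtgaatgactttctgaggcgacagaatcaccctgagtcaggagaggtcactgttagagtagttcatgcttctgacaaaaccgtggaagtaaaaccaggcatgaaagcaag
EP300 exon 30, chr22:41572251-41572532, plus strand: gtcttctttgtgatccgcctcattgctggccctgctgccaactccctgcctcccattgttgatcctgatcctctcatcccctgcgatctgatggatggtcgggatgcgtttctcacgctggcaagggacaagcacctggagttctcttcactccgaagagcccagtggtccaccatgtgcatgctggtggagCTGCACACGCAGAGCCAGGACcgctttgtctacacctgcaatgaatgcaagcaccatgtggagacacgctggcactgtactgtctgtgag

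Of the 60690 intervals, 8572 (14.1%) had a peak in all 20 lists and 16029 (26.4%) in 1 list. Peaks were present only in dCas9-VP16(10x) lists at 11967 intervals, only in dCas9-p300(core) lists at 21274, and in lists of both at 27449. By a two-sided Fisher's exact test with Benjamini-Hochberg adjustment at 0.05, occurrence was higher with dCas9-VP16(10x) at 91 intervals (0.15% of those tested) and higher with dCas9-p300(core) at 173 (0.285%). The unadjusted p was under 0.05 at 2426 and 4453 intervals. Every called interval differed by at least 9 of 10 lists. A peak in all 10 lists of one construct and in none of the other was found at 14 intervals for dCas9-VP16(10x) and at 17 for dCas9-p300(core) (adjusted Fisher's exact p = 0.0212), and 11 of these 17 lay over EP300. Leaving out 1 library changed these counts by over 1.5 times for 7 libraries. The counts, in the order above, were 539 and 412 without dCas9-VP16(10x) Pool 2 replicate 1, 469 and 419 without Pool 2 replicate 2, and 491 and 454 without Pool 3 replicate 2. They were 424 and 1130 without dCas9-p300(core) IL1RN replicate 1, 302 and 709 without Pool 1 replicate 2, 453 and 444 without Pool 2 replicate 1, and 276 and 775 without Pool 2 replicate 2.

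Over EP300, dCas9-p300(core) lists had RNAPII peaks at exons of the insert, and neither construct had peaks at exons 2 to 16. Exons 17 to 20 and 22 to 30 had a peak in 10 of 10 dCas9-p300(core) lists, and exon 21, which is 57 bp long, in 3. No dCas9-VP16(10x) list had a peak at exons 17 to 29, and 3 had one at exon 30. The promoter and exon 1 had a peak in all 20 lists, and exon 31 in 7 dCas9-VP16(10x) and 6 dCas9-p300(core) lists.

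Enrichment differed widely among these exons, and the highest peak over them stood at the 97.6th percentile or above of all peaks in each dCas9-p300(core) list. The peak over exons 24 and 25 had a fold enrichment of 34.6 at the lowest, 51.2 at the median and 71.5 at the highest of the 10 lists. At exon 30 the values were 49.6, 63.0 and 72.6, against 5.97 to 8.11 in the 3 dCas9-VP16(10x) lists, and the groups did not overlap. Exon 18 had 34.6, 40.4 and 47.4, and exon 20 the lower values of 10.8, 13.7 and 17.3. At exon 1, in contrast, the values were 9.23, 13.7 and 18.2 with dCas9-VP16(10x) and 13.2, 21.8 and 43.3 with dCas9-p300(core), and the groups overlapped. The rank of the EP300 promoter differed by -3.73 percentile points (SE 8.70, limma adjusted p = 0.790). Of the 17 intervals assigned to EP300, 11 passed the test of occurrence, all higher with dCas9-p300(core) and all over exons of the insert. The interval of exon 30, in 3 against 10 lists, did not pass it (adjusted Fisher's exact p = 0.118). One list, dCas9-p300(core) Pool 2 replicate 2, had a peak in the span of the insert that overlapped no exon (41570138 to 41570369).

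**Figure D1:**
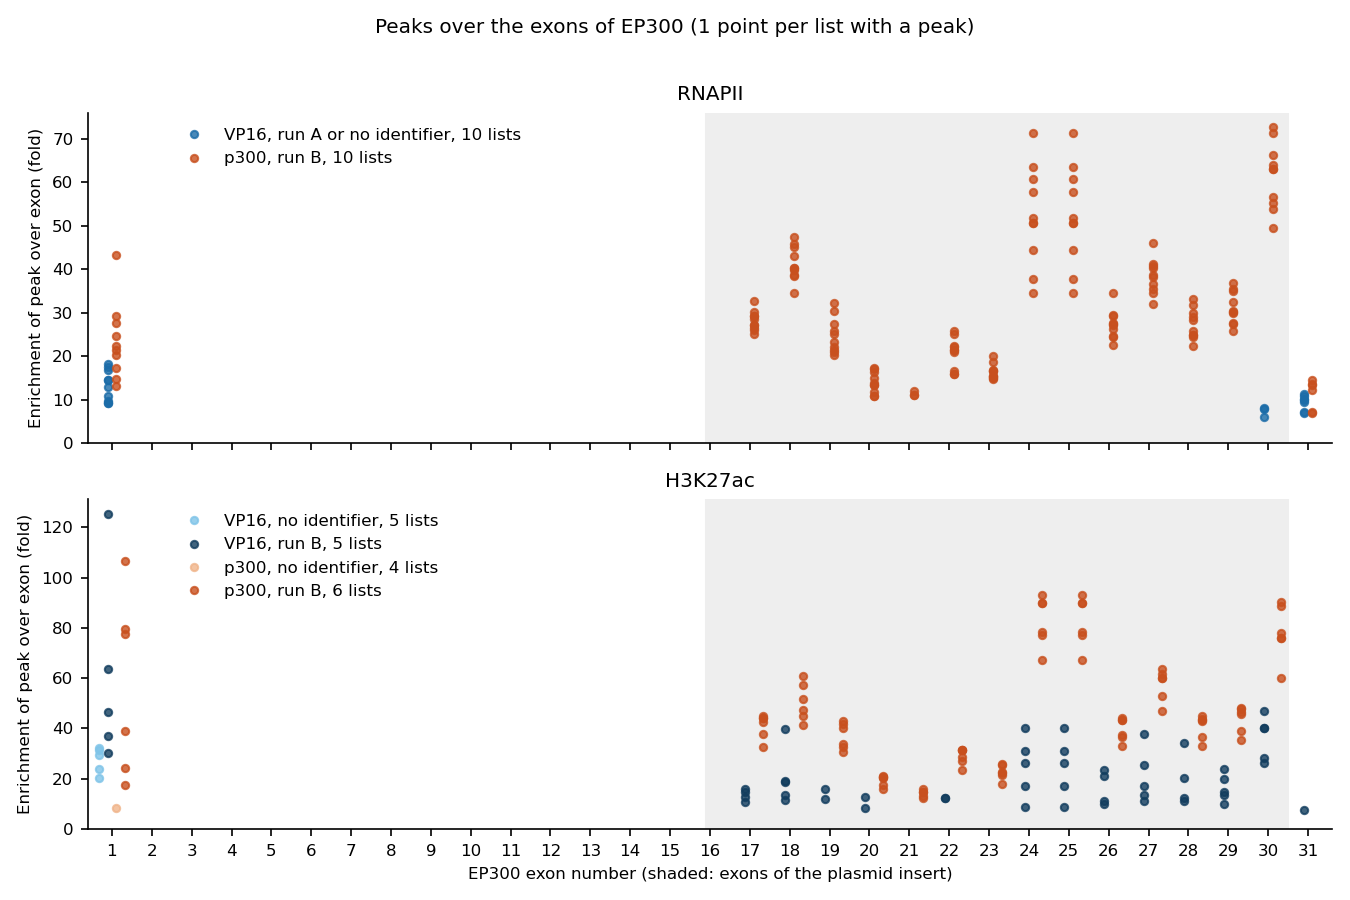
Fold enrichment of the highest peak over each of the 31 exons of EP300, 1 point per list with a peak, for RNAPII (top, 20 lists) and H3K27ac (bottom, 20 lists), with exons of the plasmid insert shaded. RNAPII points of dCas9-p300(core) fill the shaded exons, at 34.6 to 71.5 for exons 24 and 25, while dCas9-VP16(10x) has points at exons 1, 30 and 31.

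The same exons carried peaks in other lists of run B, with either construct. For H3K27ac, 6 of 6 dCas9-p300(core) lists of run B had peaks at 13 or 14 insert exons, and 5 of 5 dCas9-VP16(10x) lists of run B had them at 6 to 12. None of the 5 dCas9-VP16(10x) and 4 dCas9-p300(core) H3K27ac lists outside run B had one, although the latter lists held only 1805 to 4346 peaks. Lists called outside run B, here and below, carry no identifier, so their run is unknown. Within run B, median enrichment was taken in each list over the insert exons with a peak, so the lists rest on different sets of exons. It was 41.0 ± 4.74 (SD, n = 6) with dCas9-p300(core) and 17.7 ± 7.29 (SD, n = 5) with dCas9-VP16(10x). The difference of 23.4 had a two-sided exact permutation p of 0.00433, the smallest this design allows, and the groups did not overlap (33.2 to 45.0 against 10.6 to 29.2). With the HA antibody, which recognises the tag on dCas9, peaks over insert exons were present in 2 of 2 dCas9-p300(core) lists, both of run B. They were 14 of the 154 and 13 of the 141 peaks of these lists. The 1 dCas9-VP16(10x) HA list of run B had peaks at 12 insert exons, and the 4 outside run B had none. The chromosomal gene and the plasmid insert hold the same exon bases, so peaks from the 2 templates cannot be told apart in lists without reads, and the source of the peaks with dCas9-VP16(10x) was not tested.

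Outside EP300, 162 intervals had more peaks with dCas9-p300(core). The first 10 by the size of the difference, chosen after their values were seen because EP300 filled the list that the naming rule gives, differed by 9 or 10 lists. Intervals at 10 against 0 lay at the promoter of CAPN12, which encodes a calpain protease (chr19:39234149-39235412, enrichment 7.12, 11.5 and 20.4 at the lowest, median and highest list), in ATAD3B, in MYH9, which encodes a non-muscle myosin heavy chain, in R3HDM4, in ATP9B and 2851 bp from ENSG00000225218. Those at 9 against 0 lay at the end of CHRNA10 (enrichment 8.98, 20.1 and 28.3), in BEST2 (10.5, 19.8 and 25.97) and in AMER2 (10.2, 17.3 and 31.4) (adjusted Fisher's exact p = 0.0274). All of those named but ATP9B (46.5%) and the interval near ENSG00000225218 (55.2%) had a GC content above the 59.9% that was the median of all intervals.

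Of the 14 intervals with peaks in 10 dCas9-VP16(10x) lists and no dCas9-p300(core) list, 4 were promoters. The strongest lay 1859 bp from the start of ARRB2, the gene of an arrestin (chr17:4611680-4612066, enrichment 5.92, 15.0 and 21.6), in FGFR2, a fibroblast growth factor receptor gene (chr10:123284660-123286884, 5.48, 12.2 and 17.1), and at the end of BASP1 (7.46, 11.6 and 15.1). Others lay near SP8 and GATAD2A, in ELOVL6, a fatty acid elongase gene, in LIFR-AS1 and at the end of ARRDC1. Of the 10 named, 2 were promoters, those of the noncoding gene HCG15 (7.75, 11.5 and 15.93) and of COX7B, which encodes a subunit of cytochrome c oxidase (7.48, 8.62 and 15.7). All 10 had a GC content of at most 49.8%. H3K27ac peaks lay at FGFR2 in all 10 lists of each construct, and near SP8 in 10 dCas9-VP16(10x) and 6 dCas9-p300(core) lists, whereas BASP1, ARRB2 and ARRDC1 had none. With peaks up to 500 bp apart merged, the difference at ARRB2 and ARRDC1 was 0 lists, and FGFR2 (8 lists) and BASP1 (7 lists) did not pass. With lists of equal length, ARRB2, FGFR2, SP8, ELOVL6, LIFR-AS1, COX7B and GATAD2A did not pass, at differences of 7 or 8 lists.

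The called intervals of both directions differed in base composition and position. Median GC content was 46.0% where occurrence was higher with dCas9-VP16(10x) and 68.2% where it was higher with dCas9-p300(core), around the 59.9% of all intervals. Promoters, within 1 kb of an annotated start site, made up 26.4% of the former and 52.6% of the latter, against 33.3% of all intervals. Gene ends, within 2 kb of the 3′ end of a protein-coding gene, made up 30.8% and 8.67%, against 14.8%. GC content thus moved with the direction of the calls, and its part in them was not tested.

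H3K27ac lists gave a readout of these intervals that the calls did not use. At the 173 intervals with more RNAPII peaks with dCas9-p300(core), a median of 38.4% overlapped an H3K27ac peak in the 6 dCas9-p300(core) lists of run B (7.51 to 73.4%) and 40.5% in the 5 dCas9-VP16(10x) lists of run B (6.36 to 42.2%). Outside run B, the values were 4.62% in 5 dCas9-VP16(10x) lists (2.31 to 8.09%) and 0% in 4 dCas9-p300(core) lists. In run B the ranges of both constructs overlapped. The 173 include the 11 called intervals over EP300 insert exons, which had H3K27ac peaks only in lists of run B and were not left out. At the 91 intervals with more RNAPII peaks with dCas9-VP16(10x), the medians were 27.5% (15.4 to 35.2%) and 45.1% (43.96 to 50.5%) in dCas9-VP16(10x) lists of run B and outside it, and 9.89% (6.59 to 21.98%) and 13.7% (8.79 to 15.4%) in those of dCas9-p300(core). Over all 60690 intervals, the medians were 24.4% and 27.8% for dCas9-VP16(10x), and 17.8% and 3.72% for dCas9-p300(core), in run B and outside it. One dCas9-VP16(10x) list outside run B, Pool 1 replicate 2, has peak names that do not match its label, so its construct is in doubt.

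Among the 8572 intervals with a peak in all 20 lists, of which 90.5% were promoters, the rank of enrichment was compared. Each value is the percentile of a peak's enrichment among these intervals in its list, from 0 for the lowest to 100 for the highest, and differences are in percentile points. By limma, 1009 intervals ranked higher with dCas9-VP16(10x) (11.8% of those tested) and 796 with dCas9-p300(core) (9.29%). The 10 and 10 lists did not overlap at 24 intervals in either direction (0.28% and 0.28%). The median size of the difference was 8.77 points and its median SE 6.39, and 1242 of the 1805 called intervals differed by over 20 points. At gene ends, 16.8% of 376 intervals were called higher with dCas9-VP16(10x), against 5.05% with dCas9-p300(core) (median difference 5.03), and at promoters 11.4% and 9.51% of 7757 (median -0.916). Median GC content was 57.8% for intervals higher with dCas9-VP16(10x), 64.5% for those higher with dCas9-p300(core), and 62.0% for all 8572.

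Differences as large lay within dCas9-VP16(10x). Its 7 lists of run A and its 3 lists without an identifier differed at 1202 and 1257 intervals in the 2 directions, 28.7% of those tested, against 21.1% between the constructs. With Pools 1 to 3 alone, 3 against 3 lists, the counts were 511 and 412. Against the same 10 dCas9-p300(core) lists, the lists of run A were higher at 1364 intervals and lower at 1437, and the lists without an identifier were higher at 606 and lower at 814. An interaction of construct and gRNA pool was called by limma at 0 of 8572 intervals, with 174 (2.03%) at an unadjusted p under 0.05. Each pool and construct had 2 libraries, and those of dCas9-VP16(10x) Pools 1 to 3 were split between run A and no identifier. The count of 0 therefore cannot show that the difference between constructs was the same in each pool.

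Ribosomal protein genes, a claudin gene and a gene of an RNAPII subunit were among the promoters that ranked highest with dCas9-VP16(10x) relative to dCas9-p300(core). RPL6, which encodes a protein of the large ribosomal subunit, had percentiles of 41.5, 82.5 and 96.0 (lowest, median and highest) with dCas9-VP16(10x) and 0.297, 7.71 and 71.7 with dCas9-p300(core). The difference was 62.0 points (SE 8.53, limma adjusted p = 7.0e-05), and the groups overlapped because dCas9-p300(core) IL1RN replicate 1, at 71.7, and 2 lists without an identifier, at 41.5 and 46.2, lay toward the other construct. CLDN4, a tight junction gene of epithelia, ranked at 56.0, 97.9 and 99.5 against 4.68, 14.2 and 84.0 (difference 60.3, SE 9.44, adjusted p = 0.000213 by limma). All 7 lists of run A were between 96.7 and 98.9 there, while 2 of the 3 lists without an identifier were at 56.0 and 58.0. RPL24 ranked at 46.7, 82.9 and 86.8 against 1.70, 18.3 and 91.6, and the promoter shared by RPL36A and BTK at 35.3, 89.5 and 95.2 against 1.87, 8.06 and 83.5. POLR2B, the second largest subunit of RNAPII, shares its promoter with NOA1 and ranked at 56.6, 82.2 and 96.1 against 1.81, 23.2 and 78.0 (difference 52.9, SE 8.38).

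Of the 10 promoters named in this direction, 2 had no overlap between the constructs. MEIG1, a gene of spermatogenesis, ranked at 75.9, 89.97 and 94.8 with dCas9-VP16(10x) and 15.7, 33.9 and 45.9 with dCas9-p300(core) (difference 53.6, SE 5.05, limma adjusted p = 3.6e-07). Its mean was 87.3 in run A and 87.4 without an identifier, so that both dCas9-VP16(10x) groups were equally high. C5orf34 ranked at 51.2, 72.4 and 85.1 against 1.41, 13.7 and 45.5 (difference 51.2, SE 7.12). The others were TSC22D1, whose protein is a leucine zipper regulator, KIF18B, a mitotic kinesin gene, and ZNF254, with differences of 59.7, 55.3 and 51.5 points. For TSC22D1 and KIF18B, 2 of the 3 lists without an identifier (28.6 and 32.0, and 17.3 and 29.4) lay below every list of run A.

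In the other direction, the widest difference was at GATA6. GATA6, which encodes a zinc finger transcription factor of endoderm and heart, ranked at 5.21, 18.7 and 47.98 with dCas9-VP16(10x) and 51.0, 75.1 and 93.8 with dCas9-p300(core), with no overlap (difference -53.7, SE 6.34, limma adjusted p = 1.3e-05). The dCas9-VP16(10x) means were 19.2 in run A and 27.3 without an identifier. MAFF, a small Maf bZIP factor gene, ranked at 2.05, 36.4 and 59.4 against 59.7, 89.2 and 95.1 (difference -50.2, SE 6.38), and the lowest dCas9-p300(core) list, IL1RN replicate 1, lay just above the highest of the other construct. ADGRG6, an adhesion G protein-coupled receptor gene, ranked at 6.59, 21.7 and 45.2 against 53.8, 71.5 and 80.2 (difference -47.1, SE 5.87). PALS1, a gene of epithelial polarity, ranked at 2.19, 9.25 and 30.1 against 35.6, 55.5 and 78.9 (difference -44.1, SE 6.32). These promoters did not overlap between the constructs either.

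The remaining promoters named in this direction overlapped. They were DNAJB5, a chaperone gene (10.7, 26.2 and 43.7 against 38.1, 88.5 and 96.9), ATXN1 (1.53, 24.9 and 68.9 against 60.3, 77.1 and 88.7), the promoter of BICDL2, HCFC1R1 and THOC6, CD302, RND3, and ANXA3, an annexin gene. RND3, whose protein acts on the actin cytoskeleton, ranked between 87.9 and 97.8 in every dCas9-p300(core) list but between 4.86 and 93.9 with dCas9-VP16(10x), where both IL1RN lists were high (93.4 and 93.9). CD302 ranked at 4.82 in dCas9-p300(core) IL1RN replicate 1 and at 51.9 or above in the other 9 lists of the construct. Each of the 20 named promoters passed the threshold in all 20 fits that left out 1 library. They were chosen for the widest differences in these same lists, so this was close to given and cannot separate construct from run. With only the 3 lists without an identifier against dCas9-p300(core), CLDN4 (limma adjusted p = 0.0741), TSC22D1 (0.186), RPL36A (0.118), KIF18B (0.108) and ZNF254 (0.0675) did not pass. With peaks up to 500 bp apart merged, RND3 did not pass (-5.35 points, limma adjusted p = 0.410), and the difference at BICDL2 was -13.9 points in place of -49.9.

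**Figure D2:**
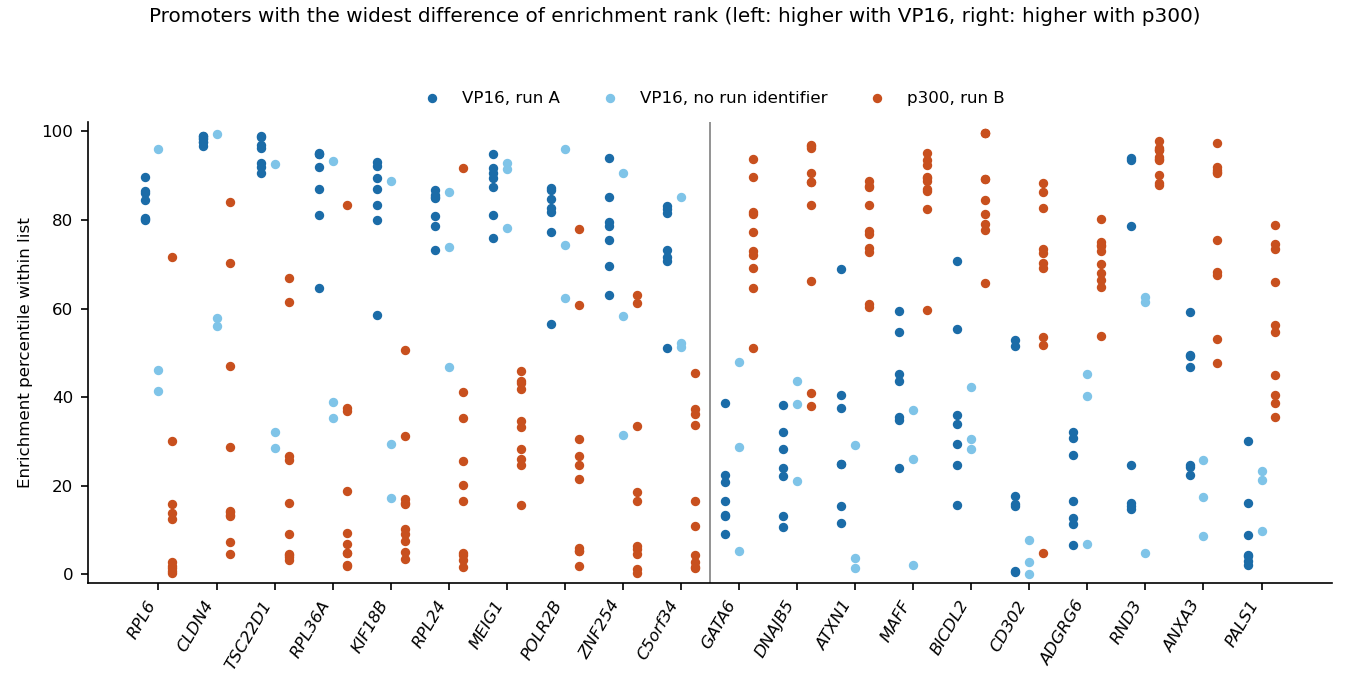
Enrichment percentile (0 to 100) of the 10 promoters with the widest difference in each direction, 1 point per list, with dCas9-VP16(10x) lists of run A, dCas9-VP16(10x) lists without an identifier and dCas9-p300(core) lists of run B in separate colours. MEIG1 (75.9 to 94.8 against 15.7 to 45.9) and GATA6 (5.21 to 47.98 against 51.0 to 93.8) show no overlap between the constructs, whereas at RPL6 and CLDN4 single lists cross over.

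Replication-dependent histone genes, which are transcribed in S phase from clusters on chromosome 6 and chromosome 1, ranked higher with dCas9-VP16(10x). Of the 15 histone promoter intervals in all 20 lists, 10 were called higher with dCas9-VP16(10x), 0 were called lower, and all 15 differences were above 0. Their median difference was 30.6 points, against -1.04 over the 7330 promoters of protein-coding genes in all 20 lists, of which 811 were called higher with dCas9-VP16(10x), against 702 with dCas9-p300(core). The largest were those of HIST1H4B (47.7, SE 9.96, limma adjusted p = 0.00196), H4C5 (46.0, SE 9.27) and H4C11 (44.1, SE 8.19), all genes of histone H4. The interval of H2AC7 and H3C4 had a mean percentile of 80.7 ± 11.5 (SD, n = 10) with dCas9-VP16(10x), against 45.5 ± 11.7 with dCas9-p300(core). The 5 intervals that did not pass, at H1-4 and H2BC5, H2AC15 and H2BC15, H3C1 and H4C1, H2AC20 and H2BC21, and H2AC25 and H2BC26, differed by 8.13, 7.37, 9.89, 4.59 and 1.52 points. The median percentile of the list was 85.5 in run A, 70.8 in lists without an identifier and 44.4 with dCas9-p300(core). With only the lists without an identifier against dCas9-p300(core), 1 of 15 was called, at a median difference of 22.5, and with percentiles taken within bins of GC content 8 of 15 were, at 18.1. Histone genes of a cluster share sequence, and uniquely aligned reads were kept, so that values over the copies rest on the bases in which they differ.

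Ribosomal protein genes had calls mostly in the same direction. Of the 74 promoters of the list in all 20 lists, 26 (35.1%) ranked higher with dCas9-VP16(10x), 1 (1.35%) with dCas9-p300(core) (RPL7, -8.56) and 47 did not pass. The median difference was 7.89 points. Of all 7330 promoters, 11.1% and 9.58% were called in these directions. After RPL6, RPL36A and RPL24, the largest were those of RPL4 (46.2, SE 9.62), RPL32 (40.2, SE 10.0) and RPS7 (39.7, SE 8.87). RPS6 ranked at 97.2 ± 2.97 with dCas9-VP16(10x), against 75.05 ± 14.2 with dCas9-p300(core) (SD, n = 10). RPS29 had a difference of the other sign (-18.3) and did not pass. With the lists without an identifier alone, 4 were called higher with dCas9-VP16(10x), against 3 with dCas9-p300(core), and within GC bins 19 and 6.

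Genes of Mediator, the complex that links activators to RNAPII, and genes of RNAPII and its elongation factors had calls mostly toward dCas9-VP16(10x). Of 23 Mediator promoters, 7 (30.4%) were higher with dCas9-VP16(10x), against 0 with dCas9-p300(core) (median difference 7.82). Of all 7330 promoters, 11.1% and 9.58% were called in these directions. CDK19, a kinase of the complex, ranked at 70.2 ± 10.99 against 20.2 ± 20.9 (SD, n = 10), a difference of 50.0 points (SE 7.43, limma adjusted p = 0.000118), and the means were 69.3 in run A and 72.3 without an identifier. MED11, MED31, MED7, MED23, MED20 and MED22 were the others, and MED22 shares its interval with RPL7A. CDK8, the paralog of CDK19, differed by -13.3 points (limma adjusted p = 0.0746). Of 24 promoters of RNAPII, pausing and elongation genes, 6 (25%) were higher with dCas9-VP16(10x) (POLR2A, POLR2B, POLR2G, POLR2K, NELFB and SUPT4H1). With dCas9-p300(core), 2 (8.33%) were higher (POLR2E and ELL), a share near that of all promoters, and the median difference was 4.43. POLR2A, whose protein the antibody recognises, ranked at 95.4 ± 3.23 against 80.4 ± 14.7 (SD, n = 10).

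Heat shock and chaperone genes had calls toward dCas9-p300(core). Of 18 promoters, 4 (22.2%, against 9.58% of all 7330) were higher with dCas9-p300(core) and 0 with dCas9-VP16(10x) (median difference -4.41), and these were HSPA9, a mitochondrial chaperone (-28.4, SE 8.39), HSP90B1, a chaperone of the endoplasmic reticulum (-26.6, SE 5.62), BAG3 (-22.1) and HSPB1 (-8.06). At BAG3, the dCas9-VP16(10x) mean was 87.0 in run A and 32.4 without an identifier, against 92.7 with dCas9-p300(core). HSP90AA1 stood near the top with both constructs (99.8 and 99.9). HSPA1A was not in all lists and had a peak in 5 dCas9-VP16(10x) lists and in 0 of the other construct (adjusted Fisher's exact p = 0.287), and its reads are hard to tell from those of its near-identical copy HSPA1B.

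The other lists had at most 4 calls each, to be read against the 11.1% and 9.58% of all 7330 promoters called in the 2 directions. Immediate early genes had 2 promoters called in each direction of 17, with JUNB (16.0) and IER5 (6.46) higher with dCas9-VP16(10x) and CCN1 (-28.3) and ATF3 (-22.3) with dCas9-p300(core). CCN1 stood at 90.5 in run A, 15.3 without an identifier and 96.2 with dCas9-p300(core). Genes of the integrated stress and unfolded protein responses had 1 and 3 calls of 19, led by ATF4 (12.6) in one direction and TRIB3 (-18.5) in the other. Cholesterol genes had 0 and 2 of 16, among them NSDHL (-28.1), an enzyme of cholesterol synthesis. Cell cycle genes had 1 and 2 of 22, with BUB1 (27.9) and MCM6 (-23.5). Glycolysis and hypoxia genes had 1 and 1 of 16, ADM (33.7) and BNIP3 (-21.9), and p53 targets 1 and 1 of 15, PLK3 (18.2) and PHLDA3 (-19.2). Genes of acetyltransferases, deacetylases and acetyl-lysine readers had 1 and 1 of 15, BRD2 (12.8) and KAT5 (-21.3). Interferon-stimulated genes had 0 and 1 of 5 (IRF1, -21.3), and estrogen-responsive genes 0 and 1 of 3 (SGK3, -22.0), in cells kept without hormone. Epithelial markers had 2 and 0 of 10, CLDN4 and PAX8 (20.3), while EPCAM and CDH1 differed by -0.166 and -0.184 points. No promoter of any of these lists passed the test of occurrence. Of the genes next to the targeted sites, only MMP17 had a promoter interval outside the 5 kb windows, with a peak in 0 dCas9-VP16(10x) and 6 dCas9-p300(core) lists (adjusted Fisher's exact p = 0.169).

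**Figure D3:**
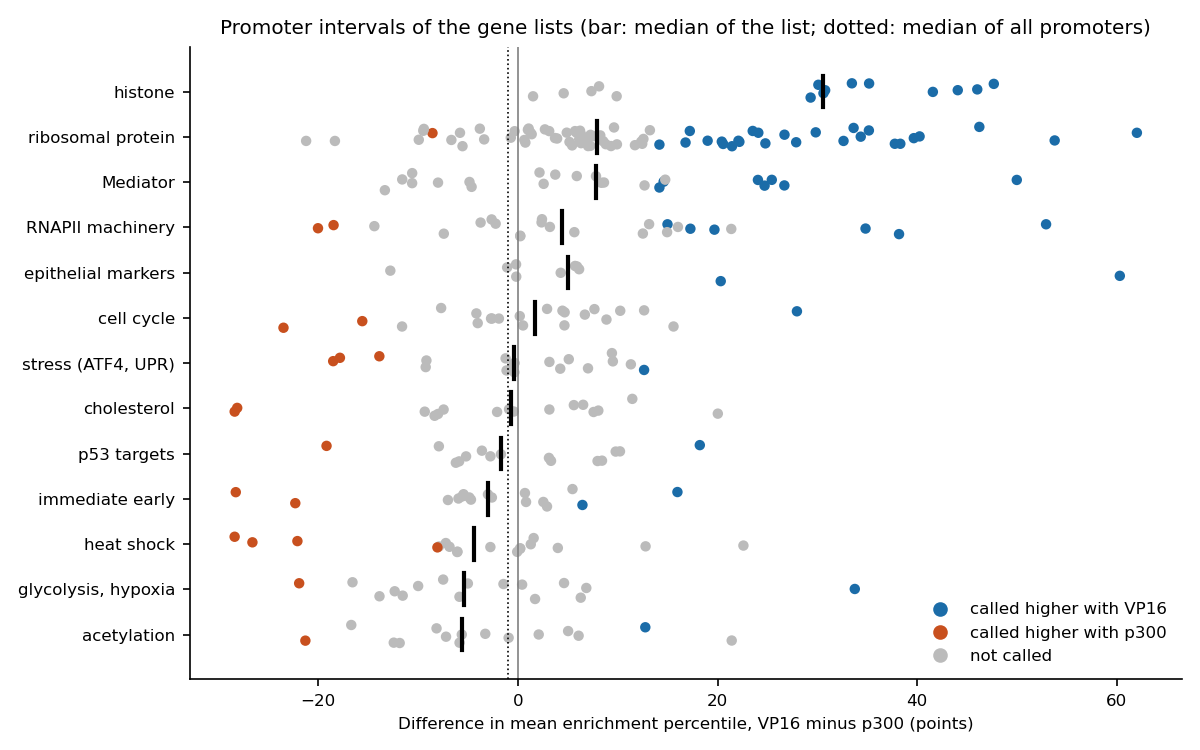
Difference in mean enrichment percentile (dCas9-VP16(10x) minus dCas9-p300(core), percentile points) of promoter intervals in all 20 lists, 1 point per interval and 1 row per gene list, coloured by the limma call, with a bar at each list's median and a dotted line at the median of 7330 promoters (-1.04). Histone promoters all lie above 0, with a median of 30.6, and 26 of 74 ribosomal protein promoters (35.1%, against 11.1% of all 7330) are called higher with dCas9-VP16(10x).

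Sequences of 8 promoters with wide differences are printed from the reference (hg19, the strand of the gene, 70 bases before the start site and 30 from it on), with matches to 6 motifs in capitals. Searched on the strand of the gene were the TATA box as TATAAA and the pyrimidine-rich start of ribosomal protein genes in a long form, CTCTTTCC, and in the short form CTTTCC that the long one contains. Searched on both strands were the GC box as GGGCGG, the CCAAT box by these letters, and the core of ETS factor sites as CCGGAAG. The first 5 ranked higher with dCas9-VP16(10x), the others with dCas9-p300(core).
RPL6, chr12:112847371-112847470, minus strand: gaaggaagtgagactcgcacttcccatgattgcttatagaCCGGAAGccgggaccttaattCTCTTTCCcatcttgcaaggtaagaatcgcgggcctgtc
RPL24, chr3:101405520-101405619, minus strand: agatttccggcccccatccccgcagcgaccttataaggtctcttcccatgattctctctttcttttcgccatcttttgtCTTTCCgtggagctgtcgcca
HIST1H4B, chr6:26027451-26027550, minus strand: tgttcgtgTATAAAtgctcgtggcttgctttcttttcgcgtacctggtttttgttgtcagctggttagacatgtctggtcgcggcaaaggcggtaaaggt
H2AC4, chr6:26033817-26033916, minus strand: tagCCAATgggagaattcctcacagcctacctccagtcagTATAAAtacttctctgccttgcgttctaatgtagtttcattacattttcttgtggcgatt
POLR2B, chr4:57844960-57845059, plus strand: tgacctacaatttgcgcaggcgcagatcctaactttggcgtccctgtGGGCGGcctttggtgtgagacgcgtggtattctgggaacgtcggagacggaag
GATA6, chr18:19749480-19749579, plus strand: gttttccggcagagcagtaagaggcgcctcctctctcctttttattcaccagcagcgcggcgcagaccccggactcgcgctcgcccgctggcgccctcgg
MAFF, chr22:38597931-38598030, plus strand: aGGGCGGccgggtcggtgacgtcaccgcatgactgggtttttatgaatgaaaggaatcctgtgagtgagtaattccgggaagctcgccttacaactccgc
PALS1, chr14:67708082-67708181, plus strand: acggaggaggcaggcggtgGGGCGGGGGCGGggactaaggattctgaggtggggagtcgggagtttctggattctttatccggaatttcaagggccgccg
Both histone windows hold a TATA box, those of RPL6 and RPL24 hold the pyrimidine motif, those of POLR2B, MAFF and PALS1 hold a GC box, and that of GATA6 holds none of the 6. TATAAA was found in 53.3% of the 15 histone windows and in 1.81% of the 7330 promoter windows. CTTTCC was found in 31.1% of the 74 ribosomal protein windows, against 4.13% of all. The GC box was found in 49.6% of all windows, in 41.4% of the 811 called higher with dCas9-VP16(10x), in 53.4% of the 702 called higher with dCas9-p300(core), and in none of the 15 histone windows that represent the intervals. CCGGAAG was found in 14.8%, 18.7% and 10.1% of the first 3 sets. These shares describe letters in a window of 100 bases, and the median GC content of the windows was 70% for all, 65% and 72% for the called sets and 43% for histones.

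Ranks were also summarised by chromosome, as the median percentile of each list. Of 23 chromosomes, 4 differed between the constructs by a two-sided permutation test with adjustment over the chromosomes. Chromosome 13 was lower with dCas9-VP16(10x), at a difference of -5.25 points (48.4 ± 2.68 against 53.6 ± 2.27, SD, n = 10, adjusted permutation p = 0.00196) as was chromosome 18, at -6.396 points (56.6 ± 3.98 against 63.0 ± 3.38, adjusted permutation p = 0.00337). Chromosome 15 was higher by 4.03 points (53.7 ± 1.84 against 49.7 ± 1.46, adjusted permutation p = 0.00196) and chromosome 6, which holds the main histone cluster, by 2.94 points (51.0 ± 2.53 against 48.1 ± 1.63, adjusted permutation p = 0.0384). On chromosomes 13, 15 and 18 the means of run A (48.1, 54.3 and 58.3) and of the lists without an identifier (48.9, 52.4 and 52.7) lay on the same side of dCas9-p300(core). With run A alone, chromosome 6 did not pass (adjusted permutation p = 0.146), and with the lists without an identifier alone, chromosomes 13 and 15 did not (adjusted exact permutation p = 0.107 and 0.121). Chromosome 21 passed in the latter (-10.7 points, adjusted exact permutation p = 0.0402) and differed by 0.511 points in run A. The number of chromosomes past the threshold was 7 without dCas9-VP16(10x) Adjacent replicate 2, without dCas9-VP16(10x) Pool 3 replicate 2 or without dCas9-p300(core) IL1RN replicate 1.

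By median r, lists of run A and of run B were most alike within their run, with exceptions among single lists. The correlations are given as a description over the 8572 intervals. The median Pearson r of percentiles was 0.821 between lists of run A (0.789 to 0.850, 21 pairs) and 0.795 between dCas9-p300(core) lists (0.383 to 0.941, 45 pairs). Between the lists of run A and the lists without an identifier, which share the construct, it was 0.549 (0.477 to 0.583, 21 pairs), below the 0.635 between run A and dCas9-p300(core) (0.524 to 0.819, 70 pairs). The lists without an identifier had 0.628 with dCas9-p300(core) (0.266 to 0.716, 30 pairs) and 0.599 among themselves (0.582 to 0.897, 3 pairs). Single lists of run B were closer to run A than to their own run. The list of dCas9-p300(core) Pool 2 replicate 1 had a median of 0.745 within its construct and 0.798 with run A. The list of dCas9-p300(core) IL1RN replicate 1 had a median of 0.522 with the other 9 of its construct and 0.572 with run A. Without it, 1412 intervals ranked higher with dCas9-VP16(10x), against 1219 with dCas9-p300(core), in place of 1009 and 796.

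**Figure D4:**
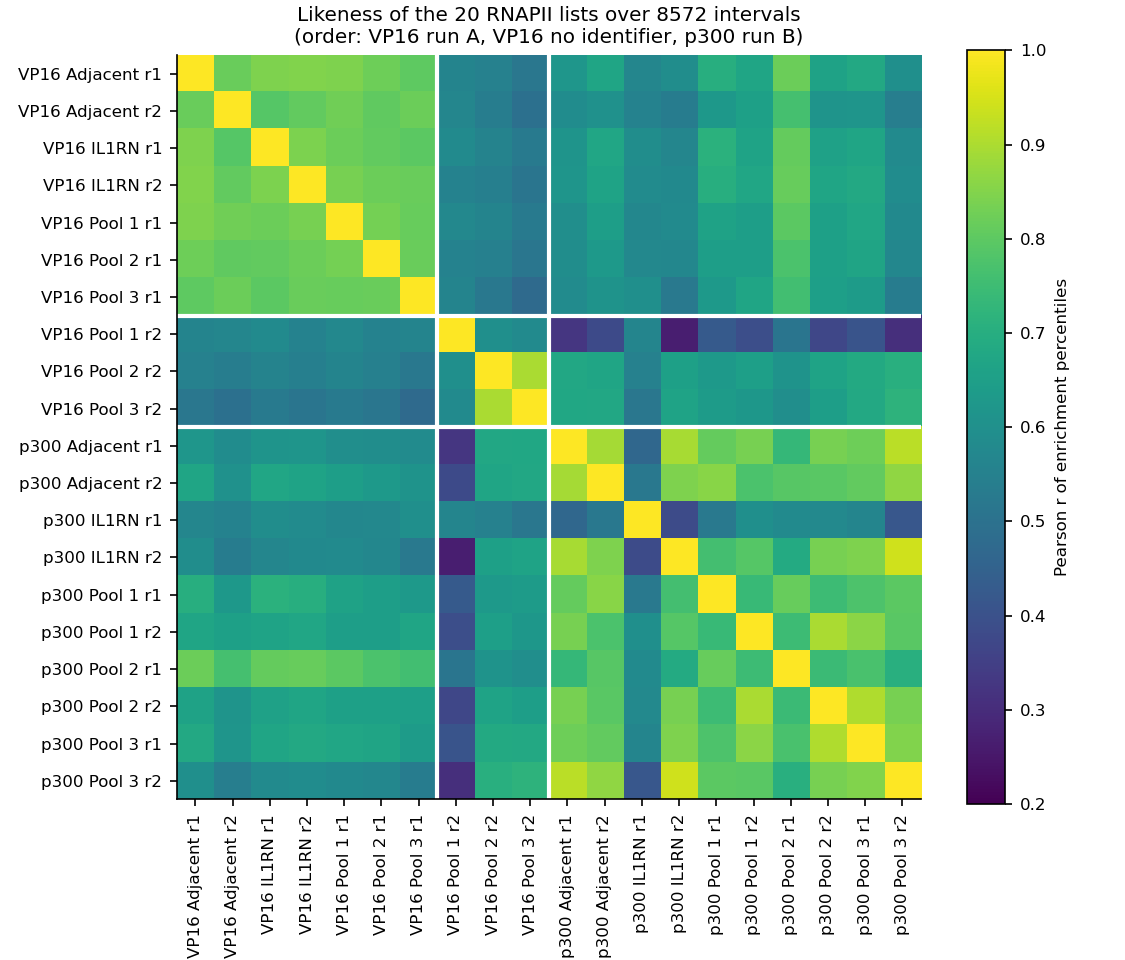
Pearson r of enrichment percentiles between the 20 RNAPII lists over 8572 intervals (colour scale from 0.2 to 1), with white lines between dCas9-VP16(10x) lists of run A, dCas9-VP16(10x) lists without an identifier and dCas9-p300(core) lists of run B. Blocks of high r lie within run A (median 0.821) and run B (median 0.795), whereas the lists without an identifier had a median of 0.599 among themselves. The list of dCas9-p300(core) IL1RN replicate 1 is a dark row within its block.

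As whole lists, peaks of dCas9-p300(core) had higher enrichment but were not more numerous. The median enrichment of a list was 9.24 ± 0.701 with dCas9-VP16(10x), against 12.5 ± 2.15 with dCas9-p300(core) (SD, n = 10, adjusted permutation p = 0.00064). The dCas9-VP16(10x) lists lay between 7.97 and 10.6 and those of dCas9-p300(core) between 9.63 and 16.1, so that the ranges overlapped. The number of peaks was 27699 ± 7171 against 28455 ± 6504 (adjusted permutation p = 0.838). Median peak width was 389 ± 124 bp against 497 ± 62.4 bp (adjusted permutation p = 0.070), but 317 ± 30.6 bp in run A and 557 ± 72.1 bp in the lists without an identifier. The share of peaks at gene ends was 14.1 ± 2.11% against 12.1 ± 1.46% (adjusted permutation p = 0.070), and the shares at promoters were 57.0 ± 8.39% and 56.3 ± 5.11% (adjusted permutation p = 0.838). Width passed the threshold without dCas9-VP16(10x) Pool 2 replicate 2 (-128 bp), without dCas9-VP16(10x) Pool 3 replicate 2 (-133 bp) or without dCas9-p300(core) IL1RN replicate 1 (-118 bp). The share at gene ends passed it without dCas9-VP16(10x) Pool 2 replicate 1 (2.48 points) or without dCas9-p300(core) IL1RN replicate 1 (2.21 points).

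**Figure D5:**
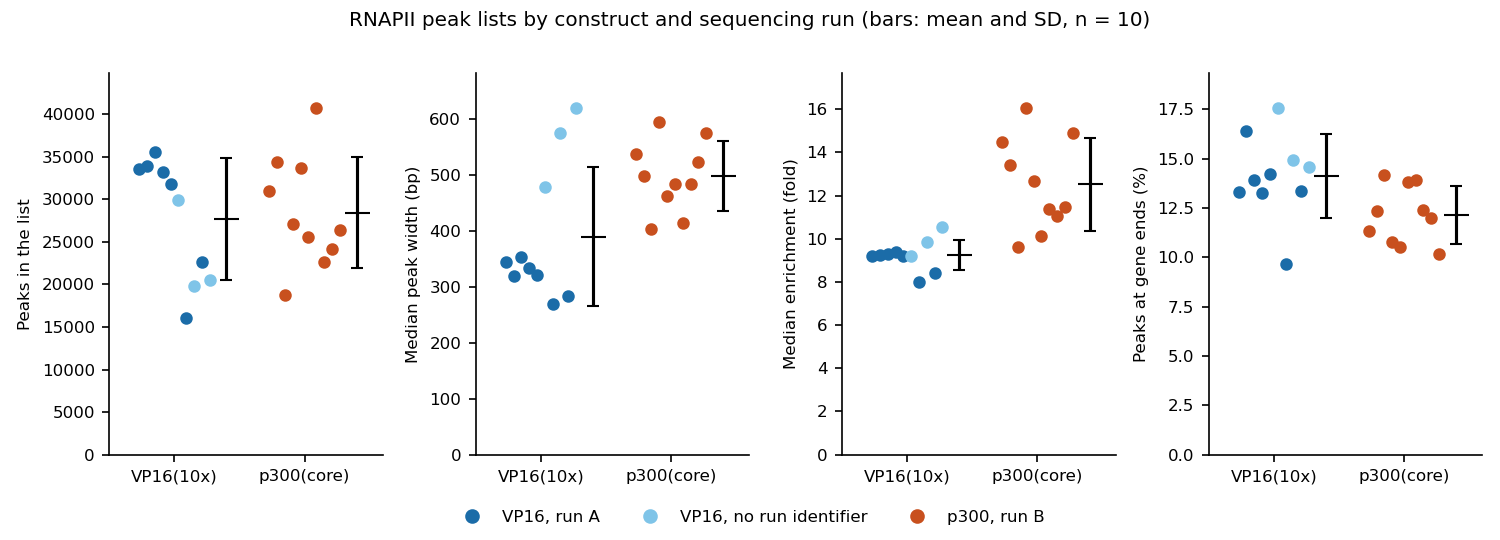
Number of peaks, median peak width (bp), median fold enrichment and share of peaks at gene ends (%) in each of the 20 RNAPII lists, 1 point per list coloured by construct and run, with the mean and SD of each construct (n = 10). Median enrichment is higher with dCas9-p300(core) (12.5 against 9.24), and dCas9-VP16(10x) lists without an identifier have wider peaks (478 to 619 bp) than those of run A (269 to 352 bp).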

How the data were processed

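RNAPII ChIP-seq was analysed in 20 libraries, 10 for each construct. Per the study's methods and the submitters' processing notes, single-end reads were aligned to hg19 with Bowtie 1.1.2, keeping reads with 1 alignment, duplicates were removed with SAMtools, and peaks were called per library with MACS2 2.1.0.20140616. The deposited peak lists give, as the authors made them, each peak's enrichment, a ratio of reads to the background expected there, and its −log10 p, which is at least 10.0 in every list. They hold no reads, so the depth is unknown and no counting interval can be given.

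Peaks were merged at 1 bp, intervals within 5 kb of the targeted loci were left out, and each interval was assigned to a promoter (within 1 kb of a start site), gene end (2 kb), gene or intergenic sequence. Occurrence was tested by a two-sided Fisher's exact test, enrichment percentiles by limma 3.58.1 (R 4.3.3), and list measures and chromosomes by permutation tests with 100000 resamples, each with Benjamini-Hochberg adjustment at 0.05 over all intervals, measures or chromosomes. Python 3.11.15, scipy 1.17.1, pandas 2.3.3 and pysam 0.24.0 were used, and the tests across intervals were tested on simulated data. The simulated lists were drawn independently of each other, without groups by run. They therefore cannot show how the calls behave where run and construct coincide. Sequences and GC content came from the hg19 reference and its GENCODE annotation. Named intervals were the 10 with the largest difference in each direction, among those called for occurrence (ties by mean enrichment) and among promoters of protein-coding genes called for rank, with all EP300 intervals, the markers and, from each gene list, members with the largest differences. Members, gene lists and tests were chosen with earlier results of these data known, and the alternatives by run were chosen after seeing the data. Nothing says that libraries of a pool came from separate cultures, so p-values measure the spread between libraries, which may be technical. Alternatives were other merging distances, a higher −log10 p, lists of equal length, other scales, a replicate block, gRNA pool as a term, the dCas9-VP16(10x) IL1RN pair as 1 library, and each library left out. A few of the named intervals and list members are not reported here.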

Additional observations from a re-analysis of the deposited data

Results flagged for a closer look

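In the dCas9-p300(core) group, IL1RN replicate 1 stood apart from the other 9 lists at the promoters of RPL6 (71.7, next list 30.1), RPL24 (91.6, next 41.2), MAFF (59.7, next 82.5) and CD302 (4.82, next 51.9), in enrichment percentiles. Pool 2 replicate 1 of the same construct stood apart at RPL36A (83.5, next 37.6). In the dCas9-VP16(10x) group, Pool 3 replicate 2, a list without a run identifier, stood apart at RPL24 (46.7, next 73.3). Of the 57 groups of values examined, 6 held such a list, and chance alone flags about 1 in 20 groups. Peaks over the EP300 exons of the p300(core) insert were present in 5 H3K27ac lists and in 1 HA list of dCas9-VP16(10x), all of run B.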

How the results depend on the processing

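Counts of calls moved with the processing. For occurrence, the intervals higher with dCas9-VP16(10x) (91) were 60 with peaks up to 500 bp apart merged, 40 with only peaks of −log10 p of at least 20, 48 with lists of equal length, 593 with the lists of run A only and 0 with the 3 lists without an identifier, and 91 to 539 with 1 library left out. Those higher with dCas9-p300(core) (173) were 81 with lists of equal length, 0 with the lists without an identifier and 173 to 1130 with 1 library left out. With only 3 dCas9-VP16(10x) lists, Fisher's exact test cannot give a p as small as those of the intervals called with all lists. These counts of 0 therefore cannot show whether occurrence depends on run. For rank, the intervals higher with dCas9-VP16(10x) (1009) were 555 with lists of equal length, 1562 over intervals in at least 5 lists of each construct, 606 with the lists without an identifier and 755 to 1412 with 1 library left out. Those higher with dCas9-p300(core) (796) were 433, 1579, 1241 by −log10 p, 1437 with run A only and 593 to 1219 with 1 library left out. With lists of equal length, summed width (-3.24 Mb), median width (-202 bp) and the share at gene ends (2.91 points) passed the threshold, as did median width with run A only (-180 bp, dCas9-VP16(10x) minus dCas9-p300(core)) and the share at gene ends with the lists without an identifier (3.56 points), where median enrichment did not (-2.64). With 1 library left out, summed width differed by -5.06 to -3.12 Mb, median width by -133 to -94.5 bp and the share at gene ends by 1.599 to 2.48 points, and 3 to 7 chromosomes passed. Direction was compared for the list measures and for the 10 named intervals in each direction, by rank and by occurrence. None of these past its threshold in the main comparison changed direction, though 23 values of named intervals were missing under an alternative. The named intervals had the widest differences, and the other called intervals were compared only by count. Median width, which was not past the threshold there, differed in direction between the groups of dCas9-VP16(10x) lists. It was 317 bp in run A and 557 bp without an identifier, against 497 bp with dCas9-p300(core). With 1 library left out, the differences in the number of peaks (-1827 to 612) and in the share at promoters (-1.23 to 1.56 points), which were not past the threshold, took either sign. The causes were not tested.

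Same-numbered lists of a gRNA pool did not deviate together (10 pairs, r from -0.0808 to 0.414, 2 over 0.1, and 2 lists closest to their own number), so the numbers were not taken as pairs. With the replicate block, 1003 and 784 intervals were called by rank, and 0 and 0 by occurrence, as with gRNA pool as strata (0 and 0). The smallest p these tests can give is 0.00195 with the block and 0.000257 with the strata, before adjustment over 60690 intervals. Depth could not be assessed from peak lists, so that a missing peak may lie just under the caller's threshold.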

Other observations

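H3K27ac peaks were also set beside the promoters and other intervals called by rank. At the 1009 intervals that ranked higher with dCas9-VP16(10x), a median of 74.7% overlapped an H3K27ac peak in dCas9-VP16(10x) lists of run B, 88.9% in dCas9-VP16(10x) lists outside it and 46.5% in dCas9-p300(core) lists of run B. At the 796 that ranked higher with dCas9-p300(core), the medians were 92.6%, 86.2% and 81.7%, and over all 8572 intervals they were 83.4%, 89.99% and 67.2%. With the HA antibody, the dCas9-VP16(10x) list of run B overlapped 51.4% of the 173 intervals with more RNAPII peaks with dCas9-p300(core), which include the 11 over EP300 insert exons. That list overlapped 2.20% of the 91 with more peaks with dCas9-VP16(10x), and 32.3% of all 60690 intervals. The 4 dCas9-VP16(10x) lists outside run B had medians of 4.62% (0.578 to 46.8%) and 1.65%, against 10.6% (7.23 to 35.1%) over all intervals.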
